A study of Homo sapiens with 6 samples.

Results

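Lipid droplets store triglyceride behind a coat of perilipin proteins, and the fatty acids that enter or leave them are sensed by the PPAR nuclear receptors. The 10 genes described here encode proteins that coat droplets, build or break down triglyceride, bring fatty acids into oxidation, or are classical PPAR targets. They were taken by gene name from the deposited table, and all 10 were found among its 30483 genes. The libraries came from A549, an established human lung adenocarcinoma line, grown for 48 h with 5 µM anlotinib, a drug that blocks VEGF, FGF and PDGF receptor kinases, or with the solvent DMSO, for which no amount is stated. There were 3 anlotinib libraries and 3 DMSO libraries, and the labels give no separate cultures, so the p-values measure the spread between these libraries, which may be technical. The study asked through which pathways the drug acts on pressure in the tumour stroma.

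PPARs pair with RXR receptors on DNA and, when bound by fatty acids, raise the expression of genes for fatty acid handling. PLIN2 is the usual droplet coat protein outside fat tissue, and its protein is stabilised by lipid. PDK4 phosphorylates and turns off pyruvate dehydrogenase, which spares glucose when fatty acids are burned. ANGPTL4 is a secreted inhibitor of lipoprotein lipase, and both it and HILPDA are also known targets of the hypoxia factor HIF-1.

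The libraries held 13886120 to 15386107 reads in genes, so that 1 read was worth 0.887 to 1.07 normalized counts, the unit used below. Anlotinib libraries differed more from each other than DMSO libraries did, where the chi-square of their counts, divided by its degrees of freedom, was 9.24 to 20.4 between anlotinib libraries and 3.75 to 6.33 between DMSO libraries. The epithelial markers KRT8, KRT18, EPCAM and CDH1 summed to 21114 to 30899.8 normalized counts in anlotinib libraries and to 29237 to 29738 in DMSO libraries, a sum carried by KRT8 and KRT18. CDH1 rose by 0.53 on the log2 scale (limma adjusted p = 0.0171), KRT18 was lower in every anlotinib library without passing (-0.29, limma adjusted p = 0.0731), the groups overlapped for KRT8, and EPCAM stood at 4.04 to 11.5 in anlotinib libraries and at 4.08 to 8.57 in DMSO libraries. Adipocyte markers summed to 7.06 to 11.5 in anlotinib libraries and 6.12 to 6.43 in DMSO libraries over the 4 of 5 with a row, and LEP, CIDEC, PLIN1 and FABP4 were each too low to test. Blood markers (2 of 4 with a row) summed to at most 4.43 in anlotinib libraries and 4.11 in DMSO libraries, and endothelial markers (3 of 3) to at most 7.09 in anlotinib libraries and 2.14 in DMSO libraries, where PECAM1 was at 0 throughout. Fibroblast markers (3 of 4) summed to 18.6 to 20.9 in anlotinib libraries and to 5.35 to 8.21 in DMSO libraries, and their part in the results was not tested. In bulk RNA, fewer cells of a type and less RNA per cell cannot be told apart.

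Anlotinib libraries held more PDK4 and PLIN2 mRNA and less ANGPTL4 and DGAT1 mRNA than DMSO libraries. The other 6 genes, PLIN3, HILPDA, DGAT2, PNPLA2, CPT1A and ACADVL, did not pass the test. The test was limma on log2(normalized count + 1) over 15734 genes with a mean of at least 10, adjusted by Benjamini-Hochberg over all of them, and all 10 genes were tested. Thus 2 of 10 rose and 2 of 10 fell, where 23.2% of all genes tested changed, 10.5% as higher and 12.7% as lower. The median log2 fold change of the 10 genes was -0.05, beside -0.02 for all genes tested. Anlotinib and DMSO libraries did not overlap for 4 of the 10, beside 40.2% of all genes tested.

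**Figure D1:**
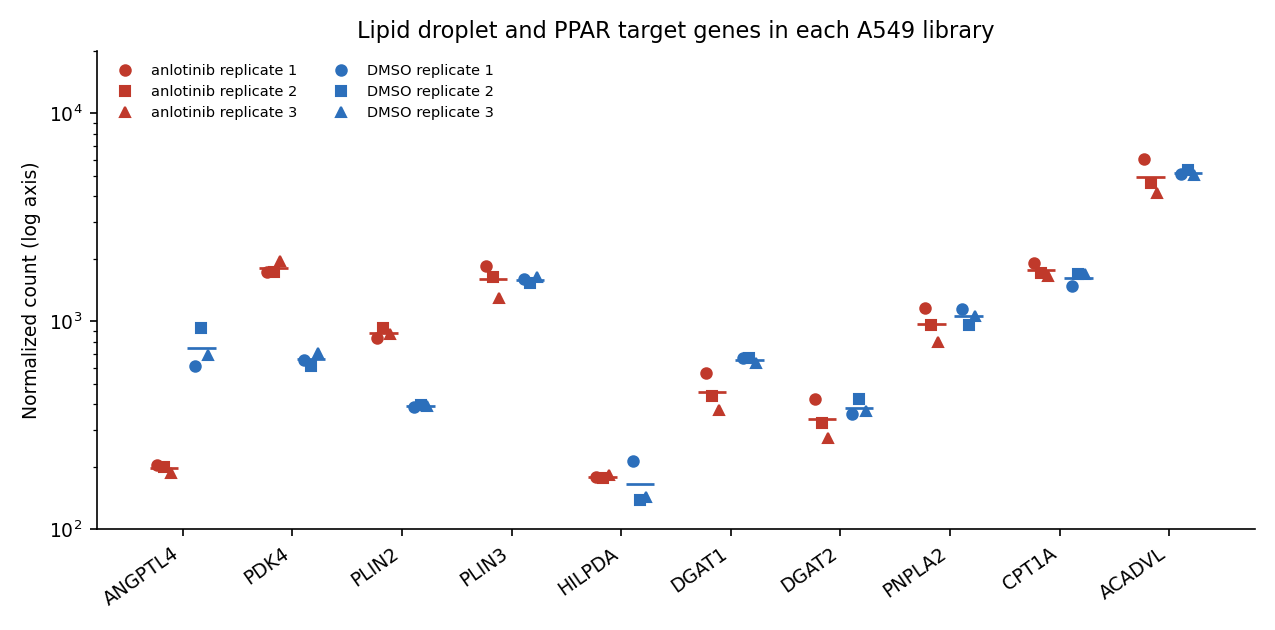
Normalized count of each gene (log axis) in every library, anlotinib in red and DMSO in blue, with a bar at the mean of 3 libraries and 1 symbol shape per replicate number. PDK4 and PLIN2 lie above their DMSO libraries and ANGPTL4 and DGAT1 below, while the other 6 genes overlap between the groups.

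PDK4, on chromosome 7 at 95583499 to 95596491 (GRCh38; positions here are those of the full gene in GENCODE release 29, introns and untranslated regions included), had 1735, 1723 and 1953 normalized counts in anlotinib libraries, against 655, 608 and 708 in DMSO libraries. Every anlotinib library was far above every DMSO library. The mean was 1804 ± 130 with anlotinib and 657 ± 50.2 with DMSO (SD, n = 3 each), a log2 fold change of 1.46 (SE 0.09; limma adjusted p = 8.73e-07). PLIN2, on chromosome 9 at 19108375 to 19149290, had 833, 933 and 872 in anlotinib libraries, against 389, 398 and 391 in DMSO libraries. The DMSO libraries were nearly level, with a coefficient of variation of 1.2%, and the anlotinib libraries stood 2.24 times higher on average. Its log2 fold change was 1.16 (SE 0.09; limma adjusted p = 4.57e-06).

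ANGPTL4, on chromosome 19 at 8363289 to 8374373, moved the other way from these PPAR targets. It had 204, 199.7 and 186 normalized counts in anlotinib libraries, against 610.4, 929 and 688 in DMSO libraries. The groups were far apart, and the spread lay in the DMSO libraries, with a coefficient of variation of 4.68% with anlotinib and 22.4% with DMSO. The log2 fold change was -1.89 (SE 0.14; limma adjusted p = 3.05e-06), with a mean of 197 ± 9.21 with anlotinib and 743 ± 166 with DMSO (SD, n = 3 each). The changes of PDK4, PLIN2 and ANGPTL4 passed under all 16 alternatives run, which moved their log2 fold changes only within 1.40 to 1.53, 1.12 to 1.23 and -2.02 to -1.72. In the authors' deposited table the log2 fold changes of these genes are 1.46, 1.16 and -1.92.

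Among all 10857 other genes with a mean of at least 100, those whose centred log2 values stayed closest to PDK4 over the 6 libraries were BTG2, NR0B1 and SNAI3-AS1. Their largest differences from PDK4 in any library were 0.16, 0.17 and 0.19 on the log2 scale. BTG2 had 825, 923 and 864 normalized counts in anlotinib libraries, against 283, 323 and 343 in DMSO libraries. NR0B1 had 1569.8, 1743 and 1712 in anlotinib libraries, against 703, 595 and 620.2 in DMSO libraries. Choosing genes by their closeness to PDK4 fixes that their groups lie apart as those of PDK4 do.

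The sequences before the start sites of the genes with the largest changes are shown because PDK4 and PLIN2 rose while ANGPTL4 fell. They are the 250 bases before the start given by RefSeq (GRCh38.p14), read 5′ to 3′ on the gene's strand. Capitals mark ACGTG on either strand, a form of the core of the site that HIF-1 binds and also part of the E-box CACGTG. Other forms of that core are not marked. The windows are chr7:95596517-95596766 on the minus strand for PDK4, chr9:19127493-19127742 on the minus strand for PLIN2, and chr19:8363905-8364154 on the plus strand for ANGPTL4, and those of PLIN2 and ANGPTL4 lie inside the longer GENCODE genes.
PDK4: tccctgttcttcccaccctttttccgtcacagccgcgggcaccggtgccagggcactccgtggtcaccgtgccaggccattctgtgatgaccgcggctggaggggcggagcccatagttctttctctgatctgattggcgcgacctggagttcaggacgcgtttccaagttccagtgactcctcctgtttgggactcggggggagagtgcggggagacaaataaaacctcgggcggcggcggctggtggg
PLIN2: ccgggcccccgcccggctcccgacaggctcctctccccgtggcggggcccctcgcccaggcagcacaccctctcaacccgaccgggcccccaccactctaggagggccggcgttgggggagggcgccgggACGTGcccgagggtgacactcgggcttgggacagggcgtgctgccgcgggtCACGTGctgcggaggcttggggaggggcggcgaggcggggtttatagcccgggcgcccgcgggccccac
ANGPTL4: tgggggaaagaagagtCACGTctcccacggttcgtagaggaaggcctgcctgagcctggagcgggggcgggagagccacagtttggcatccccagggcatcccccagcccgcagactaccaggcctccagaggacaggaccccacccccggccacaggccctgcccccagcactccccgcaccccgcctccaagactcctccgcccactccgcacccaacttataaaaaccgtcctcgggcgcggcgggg
The PLIN2 window holds ACGTG at 3 places, of which 2 are the overlapping strands of 1 E-box, the ANGPTL4 window holds it at 1 place, and the PDK4 window does not hold these letters. Of 35116 such windows over all RefSeq starts, 18.5% hold ACGTG. Of the genes with smaller changes, ACADVL, which did not pass, holds it in 1 of its 2 windows. Those of PLIN3, CPT1A and PNPLA2 do not hold it. The element bound by PPAR and RXR was searched on both strands. It was read as AGGTCA repeated in the same direction with 1 base of any kind between the copies. This exact form is in none of the windows of the 7 genes with an entry, and in 0.0171% of all windows. A match this rare was to be expected in none of the 7 genes, so its absence does not show that they lack the element. Its half-site AGGTCA, which that element contains, is in the window of PNPLA2 among these 7 and in 12.1% of all. DGAT1, DGAT2 and HILPDA had no entry. These are matches of letters and not sites shown to be bound.

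Of the droplet coat proteins, PLIN3, which joins newly forming droplets from the cytosol, did not follow PLIN2. PLIN3 (chromosome 19, 4838341 to 4867768) had 1841, 1639 and 1296 normalized counts in anlotinib libraries, against 1596, 1527 and 1631 in DMSO libraries, so that the DMSO libraries lay inside the anlotinib range. Its log2 fold change was -0.01, with a 95% interval of -0.26 to 0.24 (limma adjusted p = 0.971), and with scaling by library totals it was 0.0675. An antisense transcript, AC027319.1, shares 502 of its exon bases. PLIN4, another perilipin, rose by 1.34 on the log2 scale (SE 0.24; limma adjusted p = 0.00192), at 85.4 ± 27.7 normalized counts with anlotinib and 32.3 ± 4.14 with DMSO (SD, n = 3 each). Per kilobase of exon, PLIN2 made up 19.6%, 23.6% and 26.6% of the summed PLIN2, PLIN3 and PLIN4 in anlotinib libraries, against 11.8%, 12.5% and 11.6% in DMSO libraries. PLIN1 and PLIN5, the perilipins of fat and of oxidative tissue, had at most 7.09 normalized counts in any library.

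HILPDA, a small droplet protein that inhibits the triglyceride lipase PNPLA2, lies on chromosome 7 at 128455849 to 128458418. It had 179, 176 and 183 normalized counts in anlotinib libraries, against 214, 139 and 144 in DMSO libraries. The anlotinib libraries fell between the DMSO libraries, and the log2 fold change was 0.14 with a 95% interval of -0.22 to 0.50 (limma adjusted p = 0.585). The 95% interval of ANGPTL4, which like HILPDA is a target of PPARs and HIF-1, was -2.20 to -1.58, and the difference between these genes was not tested.

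**Figure D2:**
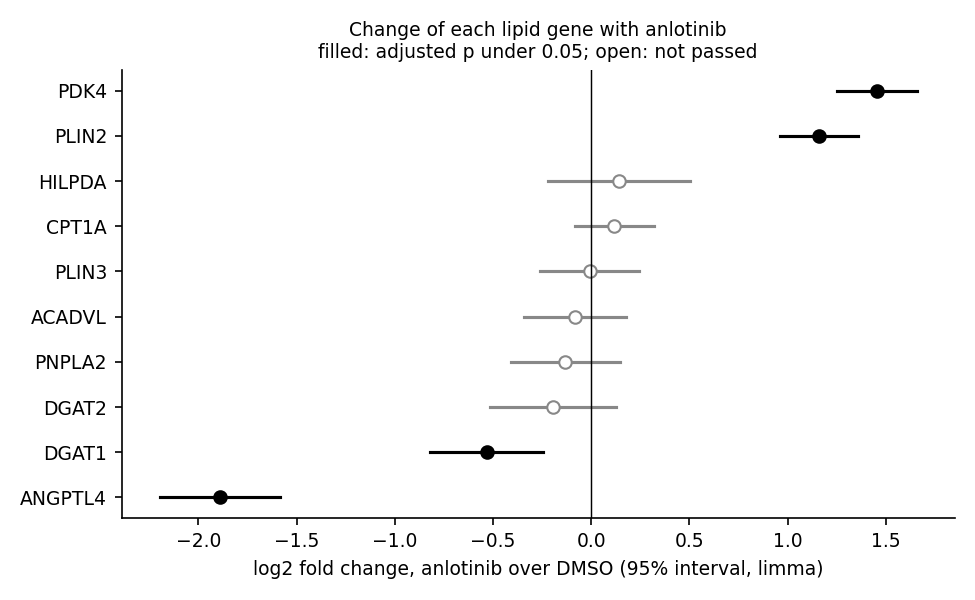
The log2 fold change of each gene, anlotinib over DMSO, with its 95% interval from limma on 3 libraries per group. Filled points passed at an adjusted p under 0.05. PDK4 at 1.46 and PLIN2 at 1.16 are higher, DGAT1 at -0.53 and ANGPTL4 at -1.89 are lower, and the intervals of the other 6 cross 0.

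DGAT1 and DGAT2 add the last fatty acid to make triglyceride, DGAT1 mainly from fatty acids taken up or recycled and DGAT2 mainly from newly made ones. DGAT1 (chromosome 8, 144314584 to 144326910) had 564, 440.2 and 373 normalized counts in anlotinib libraries, against 665, 670.3 and 628 in DMSO libraries. All anlotinib libraries were below the DMSO libraries, and anlotinib replicate 1 was the nearest to them. The log2 fold change was -0.53 (SE 0.13; limma adjusted p = 0.0127). Leaving out single libraries ended this call in 3 of 6 cases, with a limma adjusted p of 0.0595 without anlotinib replicate 2, 0.0581 without DMSO replicate 1 and 0.0533 without DMSO replicate 2. HSF1 overlaps DGAT1 by 139 exon bases on the opposite strand, and since no strand setting is stated, reads of both cannot be told apart there. HSF1 had 2033 ± 230.2 normalized counts with anlotinib and 2032 ± 47.3 with DMSO (SD, n = 3 each). AC233992.1 also shares 444 exon bases with DGAT1.

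DGAT2 (chromosome 11, 75759512 to 75801535) had 423, 324 and 274 normalized counts in anlotinib libraries, against 358, 424 and 372 in DMSO libraries. The groups overlapped, and the log2 fold change was -0.20 with a 95% interval of -0.52 to 0.12 (limma adjusted p = 0.372). Within each library the ratio of DGAT1 to DGAT2 per exon length, which no scaling can alter, was 2.55, 2.60 and 2.61 with anlotinib, against 3.56, 3.02 and 3.24 with DMSO. The ratio was nearly level over the anlotinib libraries although both genes differed between them, and every anlotinib library was below every DMSO library (2.59 ± 0.03 with anlotinib and 3.27 ± 0.27 with DMSO, SD, n = 3 each; exact permutation test, two-sided p = 0.1, the smallest that 3 against 3 allows).

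PNPLA2 (chromosome 11, 818902 to 825573), the lipase that takes the first fatty acid off stored triglyceride, had 1160.2, 965 and 794 normalized counts in anlotinib libraries, against 1150.2, 961 and 1058 in DMSO libraries. Anlotinib replicate 1 was above every DMSO library and replicate 3 below every one. The log2 fold change was -0.13 with a 95% interval of -0.41 to 0.14 (limma adjusted p = 0.497). Its activator ABHD5 stood at 0.03 and its inhibitor G0S2 at -0.02 (limma adjusted p = 0.907 and 0.98), and these were chosen for mention after their values were seen.

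CPT1A and ACADVL, which take long-chain fatty acids into mitochondria and start their oxidation, did not pass. CPT1A (chromosome 11, 68754620 to 68844410), the gate of the outer mitochondrial membrane, had 1912, 1709.5 and 1649 normalized counts in anlotinib libraries, against 1478, 1690.5 and 1691 in DMSO libraries. DMSO replicate 1 was the lowest of all, and the log2 fold change was 0.12 with a 95% interval of -0.08 to 0.32 (limma adjusted p = 0.399). ACADVL (chromosome 17, 7217125 to 7225273), the dehydrogenase of very long chains, had 6007, 4619.9 and 4162 in anlotinib libraries, against 5106, 5327 and 5044 in DMSO libraries. The anlotinib libraries spanned the DMSO libraries on both sides, and the log2 fold change was -0.08 with a 95% interval of -0.34 to 0.18 (limma adjusted p = 0.664). DLG4, which shares 85 exon bases with ACADVL on the opposite strand, rose by 0.37 (limma adjusted p = 0.0307).

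A spread within the anlotinib group ran through most of these genes. For 7 of the 10, all but PDK4, PLIN2 and HILPDA, anlotinib replicate 1 was the highest and replicate 3 the lowest of the anlotinib libraries, beside 31.2% of all genes tested. The coefficient of variation in the anlotinib group was 17.3% to 22.2% for PLIN3, DGAT1, DGAT2, PNPLA2 and ACADVL, and in the DMSO group 2.88% to 9.15% for the same genes. Without anlotinib replicate 1, DGAT2 (-0.36), PNPLA2 (-0.27) and ACADVL (-0.23) also passed as lower, which makes 5 of 10 lower beside 20.4% of all genes, while without anlotinib replicate 3 PNPLA2 and ACADVL stood at 0.0064 and 0.0306. Without anlotinib replicate 2, or without DMSO replicate 1 or 2, 1 of 10 was lower, which was ANGPTL4, beside 7.04%, 8.02% and 7.6% of all genes.

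**Figure D3:**
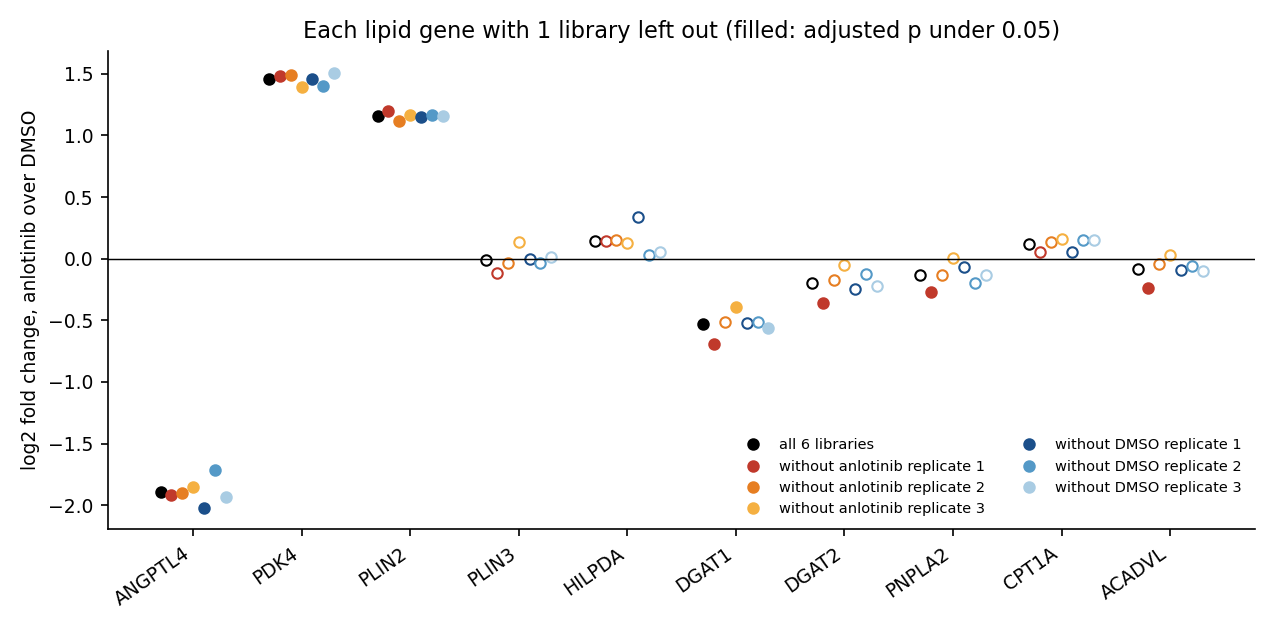
The log2 fold change of each gene, anlotinib over DMSO, with all 6 libraries (black) and with each library left out in turn (coloured by the library left out), where filled points passed at a limma adjusted p under 0.05. PDK4, PLIN2 and ANGPTL4 stay filled throughout, DGAT1 turns open in 3 settings, and DGAT2, PNPLA2 and ACADVL are filled only without anlotinib replicate 1.

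Per kilobase of exon, ACADVL and PLIN3 were the most abundant of the 10 in both groups. ACADVL had 1013 ± 197 normalized counts per kilobase with anlotinib and 1060.4 ± 30.5 with DMSO, and PLIN3 had 566 ± 97.9 with anlotinib and 563 ± 18.7 with DMSO (SD, n = 3 each). PDK4 was the third with anlotinib, at 399 ± 28.7 per kilobase, and the seventh with DMSO, at 145 ± 11.1. ANGPTL4 was the ninth with anlotinib, at 79.2 ± 3.71 per kilobase, and the third with DMSO, at 299 ± 67. DGAT2 was the lowest in both, at 43 ± 9.57 with anlotinib and 48.7 ± 4.45 with DMSO. In the order with anlotinib the libraries of CPT1A and PNPLA2 overlapped. In that with DMSO those of ANGPTL4 and PNPLA2, PNPLA2 and CPT1A, DGAT1 and PDK4, and HILPDA and PLIN2 overlapped, so these neighbours have no clear order.

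PDK4 belongs to a family of kinases that are opposed by phosphatases of the same enzyme complex. Of 6 such other genes tested, 1 rose, the phosphatase gene PDP2, by 0.86 on the log2 scale (SE 0.11; limma adjusted p = 0.000191), and the median of the 6 was 0.03. Of all genes tested, 10.5% were higher. Without anlotinib replicate 1, 2 of the 6 were higher and 1 lower, beside 14.4% and 20.4% of all genes. PDP1 stood at 0.41 and PDK2 at -0.30 (limma adjusted p = 0.117 and 0.255). PDK4 made up 74.2%, 76.9% and 80.1% of the summed PDK1 to PDK4 per exon length in anlotinib libraries, against 51.7%, 54.1% and 52.5% in DMSO libraries. The groups did not overlap for the PDK4 share or the PLIN2 share (exact permutation test, two-sided p = 0.1 each, the smallest possible, and 0.1 when adjusted over the 3 shares and ratios compared, all chosen after the values were seen).

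**Figure D4:**
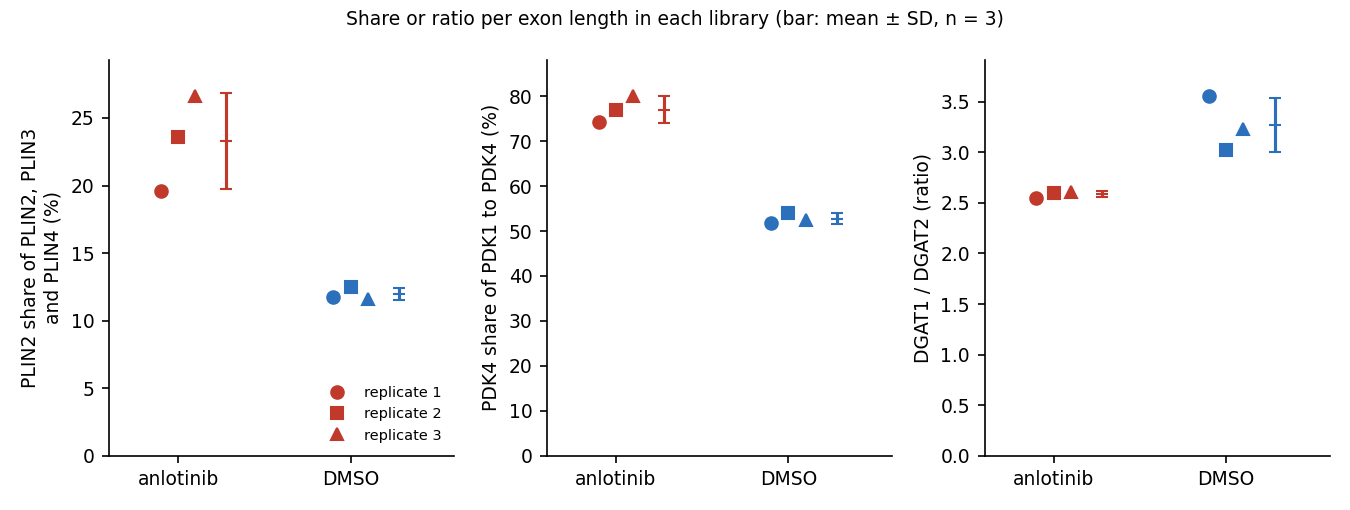
The PLIN2 share of PLIN2, PLIN3 and PLIN4, the PDK4 share of PDK1 to PDK4, and the ratio of DGAT1 to DGAT2, each per exon length, in every library, with mean and SD of 3 libraries per group. The shares average 23.3% and 77.1% with anlotinib and 12% and 52.8% with DMSO, and the ratio 2.59 with anlotinib and 3.27 with DMSO.

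The PPAR receptors themselves showed no change that passed. PPARA, PPARD and PPARG, named after their values were seen, had log2 fold changes of 0.02, 0.01 and 0.07 (limma adjusted p = 0.938, 0.955 and 0.623), with PPARG the highest at 462 ± 20.7 normalized counts with anlotinib and 438 ± 18 with DMSO (SD, n = 3 each). In the list of receptors, coactivators and corepressors, 2 of 14 tested genes rose and 2 fell, with a median of 0.09. Of all genes tested, 10.5% rose and 12.7% fell. The coactivator gene PPARGC1B rose by 0.51 and the corepressor gene NRIP1 by 0.38 (limma adjusted p = 0.0256 and 0.0361). Both of these calls were lost without any one library other than anlotinib replicate 1, with limma adjusted p of 0.0554 to 0.111 for PPARGC1B and 0.0802 to 0.149 for NRIP1. PPRC1, a coactivator related to PPARGC1B and named after its values were seen, fell by 0.25 (limma adjusted p = 0.046). Neither edgeR nor DESeq2 called more than 1 gene of this list lower, beside 11.8% and 10.2% of all genes.

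Of 17 other tested genes listed as PPAR targets of fatty acid uptake and handling, 5 rose and 0 fell by limma, with a median of 0.15. Of all genes tested, 10.5% rose and 12.7% fell. The count higher was 4 without DMSO replicate 1 or 2, beside 6.7% and 6.79% of all genes. It was 6 without anlotinib replicate 1, beside 14.4%. At an unadjusted p under 0.05, 1 gene of this list was lower, and the share of all genes at that threshold was not counted. By edgeR and DESeq2, 0 of this list were lower, beside 11.8% and 10.2% of all genes. TXNIP, which is in this list although it regulates thioredoxin and glucose uptake, rose by 1.67 (SE 0.16; limma adjusted p = 1.66e-05). It stood at 435 ± 59.1 normalized counts with anlotinib and 137 ± 27.8 with DMSO. ACSL3, an acyl-CoA synthetase found on forming droplets, had 4722, 4709 and 4757 in anlotinib libraries, against 3499, 3625 and 3532 in DMSO libraries, and rose by 0.41 (limma adjusted p = 0.00255). The acyl-CoA thioesterase gene ACOT1 rose by 1.41 (limma adjusted p = 0.00239), but its sequence is close to that of ACOT2, so its count is uncertain. The other 2 that rose, named after their values were seen, were the synthetase genes ACSL1, by 0.38, and ACSL4, by 0.35. At a minimum mean of 1, LPL, the lipase that ANGPTL4 inhibits, was also called (limma adjusted p = 0.00867), with 5, 10 and 7 reads in anlotinib libraries against 0, 0 and 1 in DMSO libraries. Of 8239 genes with a mean of 1 to under 10, 62.6% had a log2 fold change above 0.

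Of 24 other tested genes of mitochondrial and peroxisomal fatty acid oxidation, 6 fell and 0 rose by limma, with a median of -0.15. Of all genes tested, 12.7% fell and 10.5% rose. At an unadjusted p under 0.05, 1 gene of this list was higher, and the share of all genes at that threshold was not counted. By edgeR and DESeq2, 0 of this list were higher, beside 11.9% and 8.03% of all genes. ACAD9, a dehydrogenase that also helps assemble respiratory complex I, fell by 0.52 (limma adjusted p = 0.00958), at 339.8 ± 55.5 normalized counts with anlotinib and 484 ± 26.9 with DMSO. The thiolase gene ACAA2 fell by 0.40 and HADH, the short-chain hydroxyacyl-CoA dehydrogenase, by 0.38 (limma adjusted p = 0.0146 and 0.0224). All 3 genes lost their calls without anlotinib replicate 2. ACAA2 also lost its call without DMSO replicate 1 or 3. HADH also lost its call with scaling by library totals and without any one DMSO library. The count of 6 moved with single libraries and with the scaling. It was 2, with 1 higher, under scaling by library totals (9.84% of all genes lower and 13.2% higher) and 3 with DESeq2 (10.2% lower). It was 0 without anlotinib replicate 2 (7.04% of all genes), and 1, 2 and 1 when DMSO replicate 1, 2 or 3 was dropped (8.02%, 7.6% and 7.78%). It was 4 without anlotinib replicate 3 (11.9%), and without anlotinib replicate 1 it was 8, with 3 higher (20.4% of all genes lower and 14.4% higher).

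Triglyceride synthesis ahead of the DGAT step changed gene by gene, with 2 of 11 tested genes higher, 2 lower and a median of -0.10. Of all genes tested, 10.5% were higher and 12.7% lower. LPIN1, the phosphatase that makes the diacylglycerol used by DGAT enzymes, had 2168, 2147 and 2460.3 normalized counts in anlotinib libraries, against 760.4, 665 and 698 in DMSO libraries, a log2 fold change of 1.67 (SE 0.09; limma adjusted p = 2.58e-07). GPAT3, an acyltransferase of the first step in the endoplasmic reticulum, rose by 0.49, and GPAM, its mitochondrial counterpart, fell by 0.39 (limma adjusted p = 0.00401 and 0.0197). GPAM lost its call with scaling by library totals (0.0687) and without anlotinib replicate 2 or DMSO replicate 2 or 3 (0.0885, 0.0931 and 0.0978). The count lower in this list ranged from 0 to 4 with single libraries left out, beside 7.04% to 20.4% of all genes. Of 11 tested genes of droplet coat and assembly, 1 rose, PLIN4, with a median of 0.05, and METTL7B and SPART, both droplet proteins, stood at 0.41 and 0.25 (limma adjusted p = 0.0636 and 0.0686). The count higher was 3 with scaling by library totals, where METTL7B and SPART passed. It was 2 with edgeR, with DESeq2, at a minimum mean of 1 or none, and without anlotinib replicate 1 or 3. Of all genes, 5.31% to 14.4% were higher in these settings. METTL7A, below the minimum mean, had 12, 20 and 17 reads in anlotinib libraries against 1, 2 and 0 in DMSO libraries, and was named after its values were seen.

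Of 10 tested genes of lipolysis and lipoprotein lipase control, 3 rose and 0 fell by limma, with a median of 0.02. Of all genes tested, 10.5% rose and 12.7% fell. By edgeR or DESeq2, 0 of the 10 were lower, beside 11.8% and 10.2% of all genes. At an unadjusted p under 0.05, 0 of the 10 were also lower, and the share of all genes at that threshold was not counted. PNPLA3, a relative of PNPLA2 on droplets, had 195, 166 and 209 normalized counts in anlotinib libraries, against 68.5, 75.5 and 90.4 in DMSO libraries (log2 fold change 1.27, SE 0.16; limma adjusted p = 0.000148). LIPG, endothelial lipase, rose by 2.05, at 39.3 ± 2.87 with anlotinib and 9.06 ± 3.28 with DMSO (limma adjusted p = 0.000734), and ABHD6, a monoacylglycerol hydrolase, rose by 0.65 (limma adjusted p = 0.00536). Over all 7 lists, 14 of 93 tested genes were higher and 10 lower, beside 10.5% and 12.7% of all genes tested. In these lists 20 genes with a row were too low to test. The 10 lower became 4 with scaling by library totals, which moved the median of all genes by 0.075 on the log2 scale. With DESeq2 they became 6. Without anlotinib replicate 2 or 3 they became 1 and 6. Without DMSO replicate 1, 2 or 3 they became 3, 3 and 2. Of all genes, 7.04% to 11.9% were lower in these settings.

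**Figure D5:**
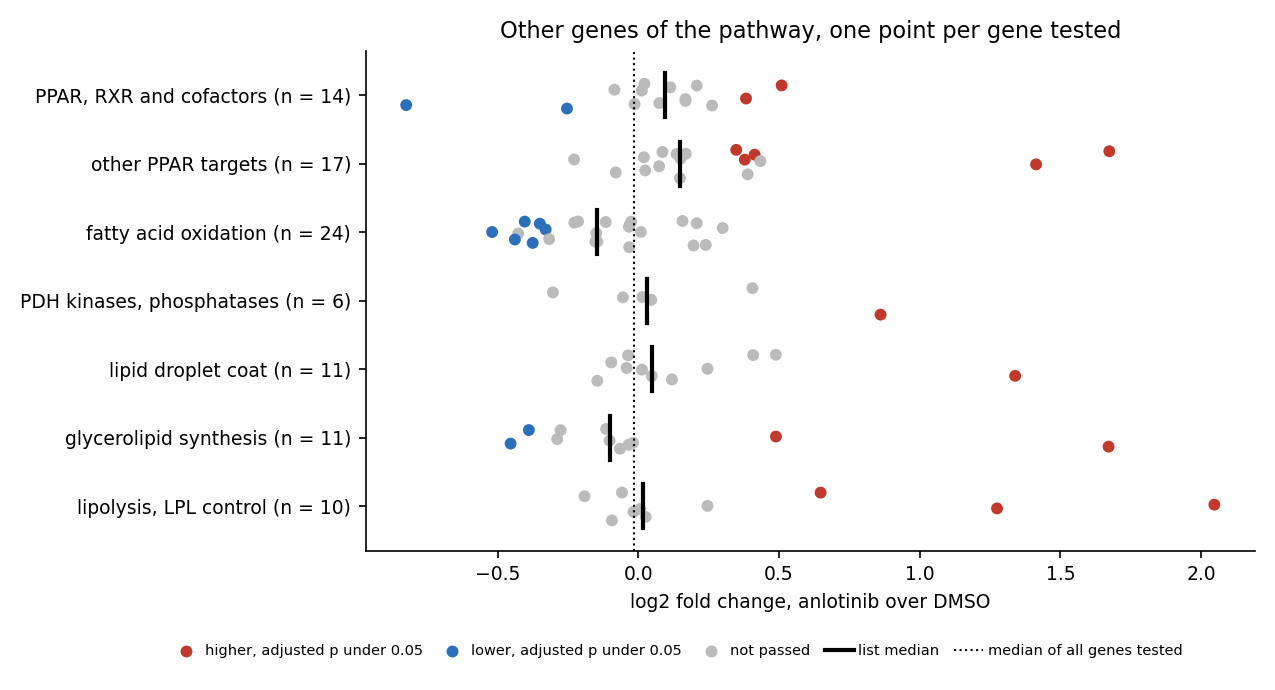
The log2 fold change, anlotinib over DMSO, of each tested gene of the 7 other lists, coloured by the limma call, with the list median as a bar and the median of all 15734 genes as a dotted line. The largest increases are single genes, namely LIPG at 2.05, TXNIP and LPIN1 at 1.67, ACOT1 at 1.41 and PLIN4 at 1.34, while list medians lie between -0.15 and 0.15.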

How the data were processed

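The authors deposited 1 table with all 6 libraries and 5 further files that repeat single libraries with identical values. RNA extraction used Trizol and the library kit was SMARTer for mRNA, per the labels' protocols. The submitters' processing notes name mm9, a mouse build, but all 30483 gene coordinates and exon lengths equal those of human GENCODE release 29 (GRCh38). No aligner, counter or strand rule is given in the sources used here. The expression values are a signal: reads per gene divided by 1 size factor per library by the authors, as the deposited values show, since 100% are whole multiples of 1 step within 1e-06. The authors also deposited a log2 fold change and a p-value with its adjusted p-value.

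The 10 genes, the 7 lists (113 of 117 symbols matched, 1 by gene ID) and the tests were chosen with earlier results of these data known. limma (trend option) compared the groups on log2(normalized count + 1), with no covariate, for 15734 genes with a mean of at least 10. Alternatives were pseudocounts of 0.5 and 4, minimum means of 1 and 50 or none, TMM or library totals, edgeR (3722 genes called) and DESeq2 on the recovered reads, a replicate block, and each library left out. Named genes were the 10, the 3 smallest p in each list and the 3 genes most like the gene with the smallest p, of which 1 is not reported here. A fold change on this scale understates the change of low genes. Intervals cover the spread between libraries. The fit was also run on simulated data with the same noise level in all libraries. The real anlotinib libraries differed more from each other than the DMSO libraries, so that run does not show how calls hold under such a spread. Of the 10 genes, 7 overlap another annotated gene and PLIN2, PDK4 and CPT1A do not. Library counts between replicates differed by more than sampling noise, so none was treated as a duplicate. Sequences are from RefSeq. Fits ran in R 4.3.3 (DESeq2 1.42.0, edgeR 4.0.16, limma 3.58.1), and tables and figures in Python 3.11.15 (matplotlib 3.10.9, scipy 1.17.1, pandas 2.3.3, numpy 2.4.6).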

Additional observations from a re-analysis of the deposited data

How the results depend on the processing

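With each library left out, changed genes numbered 1972 to 5487, against 3648 with all 6. Genes of the 10 that were lower numbered 1 to 5, against 2, and those higher stayed at 2. Of all genes, 7.04% to 20.4% were lower and 5.53% to 14.4% higher in these settings. Lower genes of the 7 lists numbered 1 to 15, against 10, and also 4 with scaling by library totals and 6 with DESeq2. PLIN3, which did not pass in any setting, turned to 0.0675 with library totals, 0.0267 with edgeR, 0.0064 with DESeq2 and -0.12 to 0.13 with a library left out, with ACADVL then at -0.23 to 0.0306 and PNPLA2 at -0.27 to 0.0064. Deviations of same-numbered libraries correlated at -0.04, 0.03 and -0.003, so no effect shared by replicate number was seen. These values cannot show whether the libraries were paired by design. With the replicate block 3552 genes changed, 9.88% of all genes as higher and 12.7% as lower. Of the 10 genes, 2 were then higher and 2 lower. In the lists 14 genes were higher and 7 lower, of which fatty acid oxidation gave 4. Depth limits genes such as LPL, whose counts of at most 10 reads carry large counting error.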
